A study of Arabidopsis thaliana with 2 samples.

Results

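The proline-rich extensin-like receptor kinases (PERKs) are a small Arabidopsis thaliana family of plasma membrane kinases. The outer part of each protein resembles extensin, a hydroxyproline-rich protein of the cell wall. A membrane-spanning stretch joins it to a serine/threonine kinase inside the cell. The family is studied as a possible link between the state of the wall and growth, with described roles in root growth, root hairs and pollen tubes.

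Of the 15 PERK genes in the TAIR10.1 reference annotation, 10 were chosen by locus number: PERK1 (AT3G24550), PERK4 (AT2G18470), PERK5 (AT4G34440), PERK8 (AT5G38560), PERK9 (AT1G68690), PERK10 (AT1G26150), PERK12 (AT1G23540), PERK13 (AT1G70460), PERK14 (AT4G32710) and PERK15 (AT1G52290). They are 10 of 21825 loci with a row in the table, and each had 1 transcript model. PERK2 and PERK3 each had no read in wild type and 1 in the ARF18 line, and the expression of PERK6, PERK7 and PERK11 was not analysed here.

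RNA from whole seedlings of the Columbia ecotype was sequenced as 1 library per genotype, wild type (Col) and the line 35SARF18OE-2. That line carries ARF18, an auxin response factor gene, for overexpression. The name 35S is that of a viral promoter that is active in most plant tissues, and the comparison rests on that 1 line. The labels give an age of 7 days, and elsewhere 4 days of dark growth on 1/2 MS medium before 7 days of white light, and both libraries share this description. The comparison asks how transcript levels of the overexpression line differ from those of wild type.

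The libraries held 7059226 counts in Col and 6824188 in the overexpression line. ARF18 had 97 and 472 counts, a ratio of 5.03 (95% interval 4.04 to 6.33). Each marker listed for green leaf (6 genes) and root (10 genes) had reads in both libraries. With 1 library per genotype no test between genotypes was possible, and every interval below covers counting error only, not the spread between plants. In whole seedlings, fewer cells of a type and less RNA per cell cannot be told apart.

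A stretch rich in proline codons near the start of the coding sequence is typical of this family. It is weaker in PERK15, and a high proline share also occurs in another kinase, that of AT5G56890 below. The following stretches of 30 codons are those with the most proline codons inside 1 coding exon, read 5′ to 3′ on the coding strand from the TAIR10.1 genome, with proline codons in capitals. PERK10, PERK9 and PERK1 are shown as the genes with the lowest log2 ratios of (RPKM + 1) below, a scale on which PERK4 and PERK12, with few reads, stand nearer to 0 than by their count ratios. PERK13 and PERK15 are shown as the expressed genes nearest to 0 on that scale, and FERONIA (FER), a wall-sensing receptor kinase without an extensin-like part, for contrast.
PERK10: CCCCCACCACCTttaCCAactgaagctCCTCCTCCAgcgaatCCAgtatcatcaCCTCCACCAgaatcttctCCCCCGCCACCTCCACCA
PERK9: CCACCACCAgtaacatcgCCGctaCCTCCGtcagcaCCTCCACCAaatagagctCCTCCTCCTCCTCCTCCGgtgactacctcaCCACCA
PERK1: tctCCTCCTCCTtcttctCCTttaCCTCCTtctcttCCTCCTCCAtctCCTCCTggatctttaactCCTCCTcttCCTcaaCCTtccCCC
PERK13: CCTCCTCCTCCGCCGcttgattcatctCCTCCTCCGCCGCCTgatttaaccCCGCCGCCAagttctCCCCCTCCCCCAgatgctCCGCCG
PERK15: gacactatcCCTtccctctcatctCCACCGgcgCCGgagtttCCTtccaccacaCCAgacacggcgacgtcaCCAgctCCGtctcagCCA
FER: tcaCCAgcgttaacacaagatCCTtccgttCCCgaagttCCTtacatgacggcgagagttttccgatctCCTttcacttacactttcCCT
The PERK10 stretch lies at chr1:9042487-9042576 on the minus strand and the PERK9 stretch at chr1:25789285-25789374 on the plus strand. The PERK1 stretch is at chr3:8960567-8960656 (plus), that of PERK13 at chr1:26556356-26556445 (plus), that of PERK15 at chr1:19472264-19472353 (minus) and that of FER at chr3:19120256-19120345 (minus). Proline codons made up 18 of 30 in PERK10, 17 in PERK9, 16 in PERK1 and 19 in PERK13, but 9 in PERK15 and 6 in FER. C made up 50% of the bases in the PERK10 and PERK1 stretches, 48.9% in PERK9, 52.2% in PERK13, 45.6% in PERK15 and 33.3% in FER.

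The predicted proteins had 509 (PERK15) to 762 (PERK10) residues, and the most hydrophobic stretch of 19 residues was taken as the membrane-spanning part. The part before it had 332 residues in PERK10, 280 in PERK9 and 282 in PERK14, against 143 in PERK1 and 65 in PERK15. Proline made up 43.9% of that part in PERK9, 39.5% in PERK10, 38.8% in PERK13 and 37.1% in PERK1, but 23.8% in PERK4 and 18.5% in PERK15. In PERK1 and PERK4 a further proline-rich stretch followed the membrane-spanning part, and proline made up 8.16% and 6.48% of the residues after it. Runs of a serine and 3 or more prolines, the repeat of extensins, numbered 14 in PERK9, 9 in PERK8 and in PERK14, 7 in PERK10 and in PERK13, 3 in PERK1 and in PERK12, 2 in PERK4 and in PERK5, and 0 in PERK15.

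**Figure D1:**
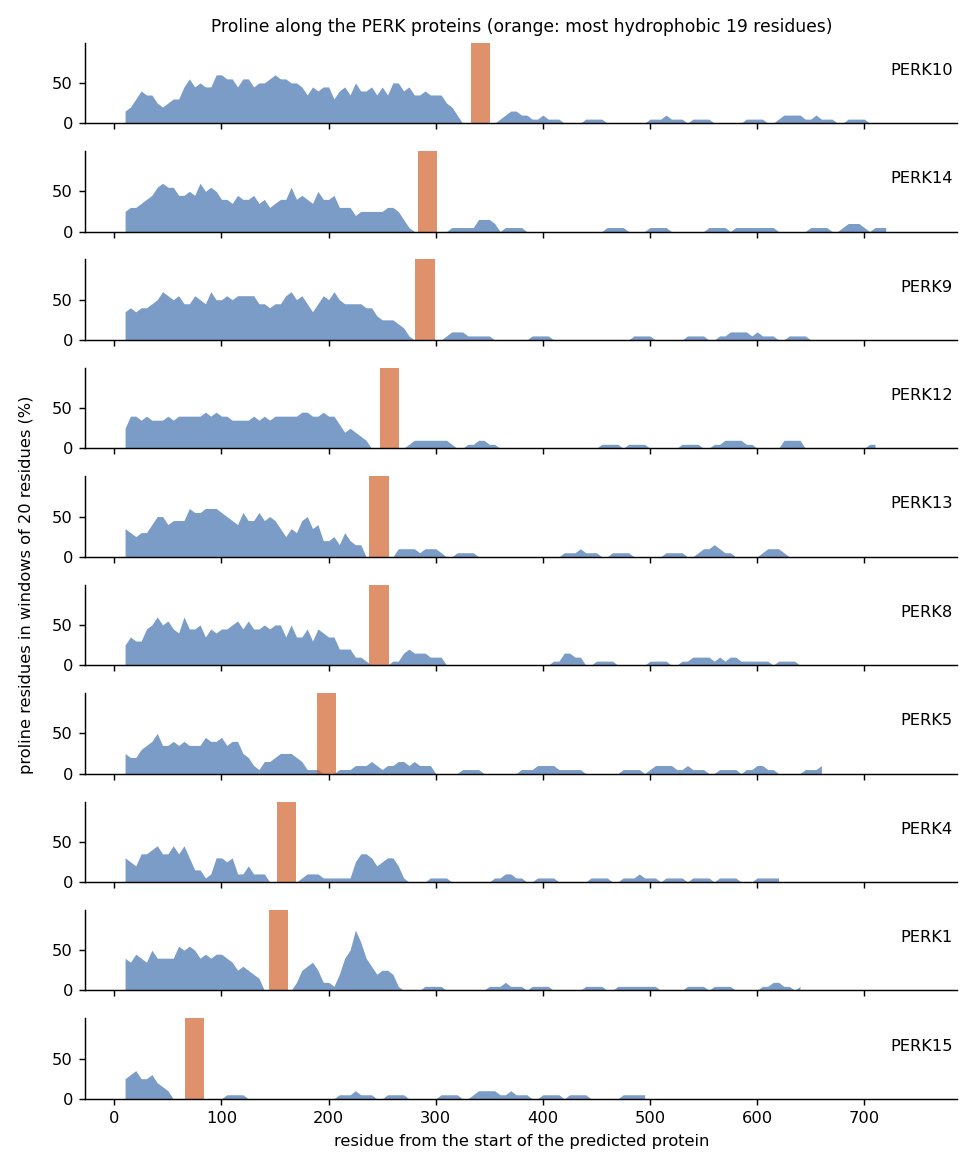
Share of proline (percent, y axis) in windows of 20 residues along the predicted protein (x axis, residue number) for the 10 PERK genes, ordered by the length of the part before the most hydrophobic 19 residues (orange). Each protein has a proline-rich stretch before the orange one, within a part of 332 residues in PERK10 and 65 in PERK15, and PERK1 and PERK4 have a further proline-rich stretch after it.

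The kinase side of the proteins was more alike than the outer side. Over the 45 pairs of members, identity after the membrane-spanning part was 49.8% to 82.7% with a median of 56.7%, and before it 25.4% to 56.3% with a median of 44.9%. PERK12 and PERK13 formed the most alike pair on the kinase side (82.7%), followed by PERK9 and PERK10 (80.8%). At the nucleotide level the longest identical run between transcripts of any 2 members was 30 bases, with a median of 16. Outside the 10 members, PERK1 shared 50 bases with PERK3, and PERK13 shared 66 bases with its chromosomal neighbour AT1G70450. PERK3 had 1 count in all and AT1G70450 had 1 in each library. Neither the read length nor the treatment of reads with several matches is stated in the labels or the table.

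Most PERK genes had lower counts in the overexpression library. Of the 10 members, 9 had a count ratio below 1. For 6 of them (PERK1, PERK4, PERK8, PERK9, PERK10 and PERK14) the counting interval lay wholly below 1, and it included 1 for 4 (PERK5, PERK12, PERK13 and PERK15). RPKM is the read count scaled to transcript length and library total, and a gene is called expressed here when its mean RPKM over both libraries is at least 1. Of 15083 expressed nuclear genes, 15.6% had an interval wholly below 1 and 18.7% one wholly above 1, whereas 0 of the 10 PERK genes had one above 1. The 10 genes together had 2164 counts in Col and 1111 in the overexpression line, a ratio of 0.531 (0.494 to 0.571). PERK1 gave 49.5% of these reads in Col and 48.4% in the overexpression line. Without PERK1 the summed ratio was 0.543 (0.490 to 0.601).

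PERK1, whose Brassica napus counterpart is induced by wounding, had the highest level of the family. It had 1072 counts in Col and 538 in the overexpression line, or an RPKM of 63.9 (95% Poisson interval 60.1 to 67.8) and 33.2 (30.4 to 36.1). The 2 intervals of the level did not overlap, and the count ratio was 0.519 (0.467 to 0.576), 1.93-fold lower. On the log2 scale of (RPKM + 1), which understates the difference of low genes, the ratio was -0.93, and 0.842% of expressed genes were lower.

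PERK8, PERK9 and PERK10 encode proteins that bind the KIPK kinases and are tied to root growth. PERK10 had 240 counts in Col and 89 in the overexpression line, at an RPKM of 11.9 (10.4 to 13.5) and 4.55 (3.65 to 5.60). Its count ratio was 0.384 (0.297 to 0.491), and its log2 ratio of -1.21 was the lowest of the family, with 0.345% of expressed genes below it. That place holds with a pseudocount of 1 RPKM: PERK4, described below, was lower with one of 0.1 RPKM (-1.55 against -1.36) and by count ratio. PERK9 had 89 and 33 counts, at an RPKM of 4.13 (3.32 to 5.09) and 1.59 (1.09 to 2.23). Its count ratio was also 0.384 (0.249 to 0.578), and its log2 ratio was -0.99. PERK8 was the second most abundant member, with 446 and 249 counts, at an RPKM of 22.6 (20.5 to 24.8) and 13.04 (11.5 to 14.8). Its count ratio was 0.578 (0.493 to 0.676) and its log2 ratio -0.75. For these 3 genes the level in Col and that in the overexpression line had intervals that did not overlap.

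PERK4, tied to abscisic acid responses and calcium channels in roots, had few reads, 24 in Col and 7 in the overexpression line. Its RPKM was 1.69 (1.08 to 2.51) and 0.509 (0.205 to 1.05), with a count ratio of 0.302 (0.110 to 0.722) and a log2 ratio of -0.83. It reached a mean RPKM of 1 only through its level in Col, so its place among the expressed genes depends on the difference itself. PERK14 had 180 and 122 counts, at an RPKM of 15.8 (13.5 to 18.2) and 11.0 (9.18 to 13.2). Its count ratio of 0.701 (0.553 to 0.887) was nearer to 1 than that of PERK10, and the intervals of these 2 ratios did not overlap. The deposited length of PERK14 was 1618 bases, against 2794 in the reference transcript. That is too short to code for its predicted protein of 731 residues. Its RPKM rests on this length, while its count ratio does not.

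PERK13, also named ROOT HAIR SPECIFIC 10, restrains root hair growth. It had 65 counts in Col and 42 in the overexpression line, at an RPKM of 3.37 (2.60 to 4.30) and 2.25 (1.62 to 3.05), and a count ratio of 0.668 (0.442 to 1.00). PERK15 had 42 and 28 counts, at an RPKM of 3.24 (2.34 to 4.38) and 2.24 (1.49 to 3.23), and a count ratio of 0.690 (0.412 to 1.14). The levels of both genes had overlapping intervals in the 2 libraries. Both ratio intervals included 1, that of PERK13 only by its upper end, and under TMM scaling (a trimmed mean of gene ratios) the interval of PERK13 lay below 1. Their log2 ratios were -0.43 and -0.39.

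PERK12, known for a role in inflorescence growth, and PERK5, tied to pollen tube growth, did not reach a mean RPKM of 1. PERK12 had 6 counts in Col and 2 in the overexpression line, a count ratio of 0.345 (0.0340 to 1.93), and PERK5 had 0 and 1. No difference was detectable for either gene at this depth.

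**Figure D2:**
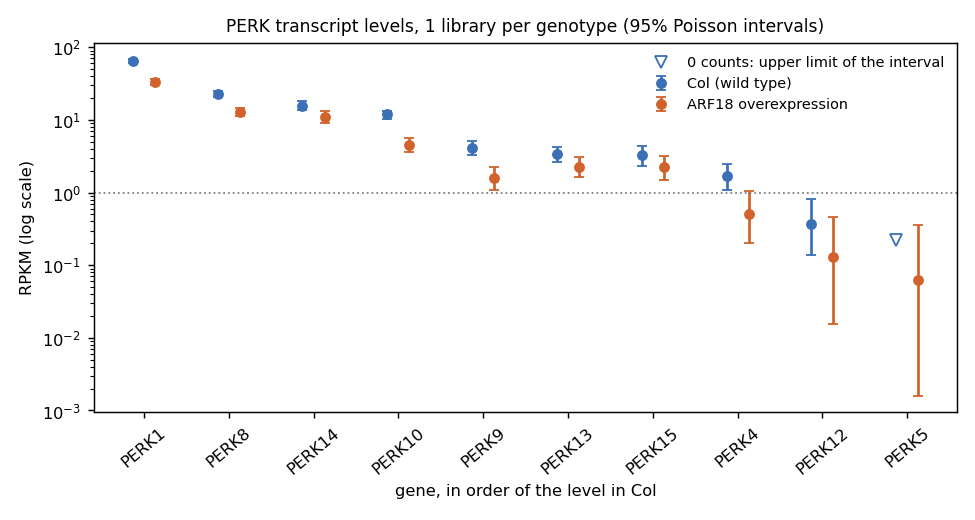
RPKM on a log scale (y axis) of the 10 PERK genes (x axis, ordered by the level in Col) in the Col library (blue) and the ARF18 overexpression library (orange), with 95% Poisson intervals. The dotted line marks an RPKM of 1, and the open triangle is the upper limit for PERK5 in Col, which had 0 counts. The overexpression library is lower for each gene but PERK5, and the intervals of PERK1, PERK4, PERK8, PERK9, PERK10 and PERK14 are separate in the 2 libraries.

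The order of the levels was much the same in both libraries. In Col it ran PERK1, PERK8, PERK14, PERK10, PERK9, PERK13, PERK15, PERK4, PERK12 and PERK5, with RPKM values from 63.9 to 0. The intervals of neighbours overlapped from PERK9 through PERK4, and again for PERK12 and PERK5, and were separate elsewhere. The place of PERK14 in this order rests on its short deposited length of 1618 bases. In the overexpression library PERK9 stood below PERK13 and PERK15, and these 3 had overlapping intervals. PERK8 and PERK14, which were separate in Col, overlapped there (13.04 and 11.05). PERK4, PERK12 and PERK5 were last in both.

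Of the 8 expressed members, 8 had a negative log2 ratio, beside 46.2% of expressed genes. At least 1.5-fold lower on this scale were 5 of them, beside 4.71% of expressed genes, and at least 2-fold lower was PERK10 alone, beside 0.663%. At least 2-fold higher were 0 of them, beside 1.25% of expressed genes. The median log2 ratio was -0.79, with a range from -1.21 to -0.39, and that of expressed genes was 0.03. PERK4 counts among the 8, the 5 and the median, though it passed the filter only through Col (RPKM 1.69 and 0.509). The sign was negative for each of the other expressed members as well. In the authors' deposited table, whose unnamed test compares the reads of the 2 libraries, 6 of 10 PERK rows were lower at an FDR of 0.05 or less, beside 7.17% of all transcript models. These were the 6 genes with intervals below 1, and in the authors' deposited table their FDR ranged from 3.24e-35 (PERK1) to 0.0222 (PERK4). At least 2-fold lower at that FDR in the authors' deposited table were 3 of the 10 (PERK4, PERK9 and PERK10), beside 0.761% of all transcript models.

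PERK transcripts are long, and ratios across the table fell with transcript length. The median length was 2554.5 bases in the 8 expressed members and 1415 in all expressed genes. Genes within 10% of the length of PERK10 had a median log2 ratio of -0.26 (703 genes), and 0.711% of them were lower than PERK10. For PERK1 the median of 1236 such genes was -0.18, with 1.13% lower, and for PERK9 that of 610 genes was -0.27, with 1.15% lower. PERK8 had 3.33% of such genes below it, PERK14 6.26% (at its short deposited length of 1618 bases) and PERK15 11.8%. For PERK13 the share was 22.1%, the highest of the family.

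After the median of 50 bins of length and then of 50 bins of GC content was subtracted, the 8 log2 ratios ranged from -0.88 (PERK10) to -0.17 (PERK13), with a median of -0.61. With the C share of the transcript in place of GC content the median was -0.51. With the highest C share in any 100 bases, a measure added after seeing the data, it was -0.35, and 7 of 8 were negative, beside 49.9% of expressed genes. With intervals shifted in the same way, 6 members lay below 1 after the GC adjustment, beside 12.6% of expressed genes, 5 after that for C share (12.4%) and 5 after that for the highest C share (11.8%). In that setting PERK10 was at -0.66, PERK1 at -0.45, PERK4 at -0.44, PERK9 at -0.43, PERK15 at -0.26, PERK8 at -0.22 and PERK14 at -0.16, and PERK13 turned to 0.10. The median subtracted for length was -0.03 for PERK14, at its short deposited length of 1618 bases. For PERK13, at 2732 bases, it was -0.24. The adjusted values of PERK14, and its place in these counts, rest on that short length. The highest C share in 100 bases was 46% to 56% in these 8 genes, against a median of 34% in expressed genes. The bins hold the PERK and extensin genes themselves, so what they subtract includes part of those genes' own difference. Whether base composition had a part in the lower PERK values was not tested.

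**Figure D3:**
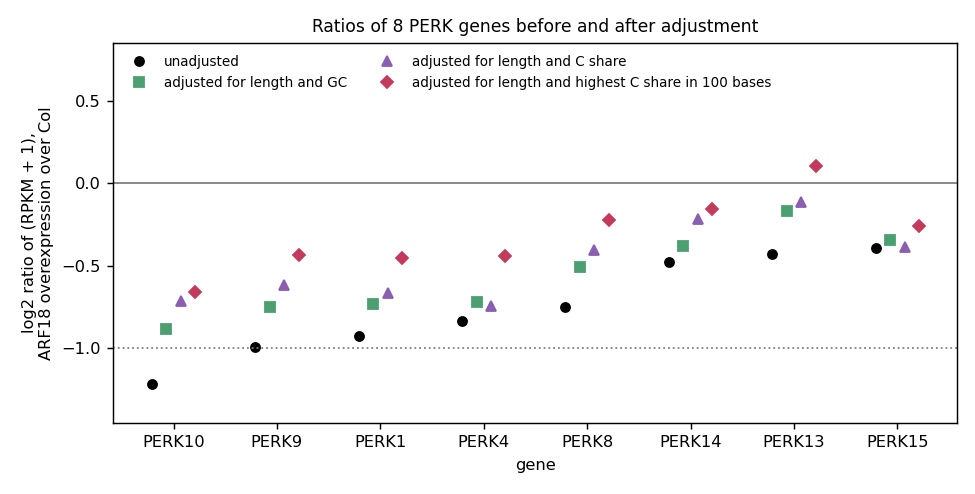
Log2 ratio of (RPKM + 1), overexpression over Col (y axis), of the 8 expressed PERK genes (x axis), unadjusted (black) and after subtraction of bin medians of length with GC content (green), C share (purple) or the highest C share in 100 bases (red). The dotted line marks 2-fold. PERK10 is lowest in 3 of the 4 series (-1.21 unadjusted), PERK4 in the purple one (-0.74 against -0.71), and PERK13 is above 0 in the red series (0.10).

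The ratios were set beside the number of serine-proline runs in all expressed proteins. Only the PERK genes were set apart from the other genes here. Those others hold extensins and leucine-rich repeat extensins of the lists below, so their medians are not independent of those lists. Of 14305 other genes with no such run, the median log2 ratio was 0.04. It was -0.08 with 1 run (359 genes), -0.19 with 2 (35 genes), -0.29 with 3 to 5 (16 genes) and -1.28 with 6 or more (28 genes, of which 60.7% were at least 2-fold lower). PERK15, without a run, was at -0.39, PERK4 (2 runs) at -0.83 and PERK1 (3 runs) at -0.93, each below the median of its class. PERK8, PERK9, PERK10, PERK13 and PERK14, with 7 to 14 runs, ranged from -1.21 to -0.43 and stood above the median of theirs. Among the 8 PERK genes, Spearman's rho of the log2 ratio was -0.33 with the number of runs, -0.64 with the proline share of the protein, -0.67 with transcript length and -0.05 with the highest C share in 100 bases. Over all expressed genes, rho was -0.04 with the proline share and -0.21 with the highest C share in 100 bases. The 216 other genes with a highest C share of 50% or more had a median log2 ratio of -0.31. In that class fell 7 of the 8 PERK genes. The values among the PERK genes are descriptions over 8 genes measured in the same 2 libraries, in which length and proline share are tied.

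**Figure D4:**
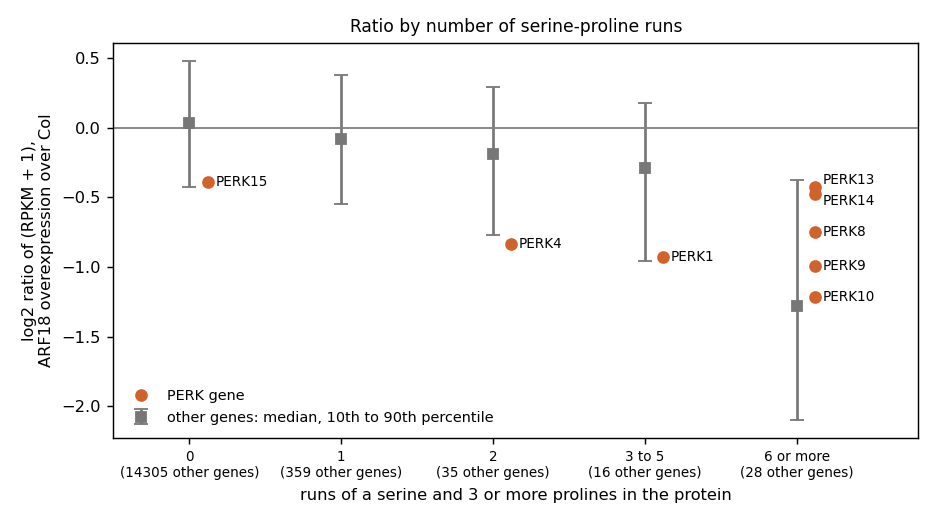
Log2 ratio of (RPKM + 1), overexpression over Col (y axis), by the number of runs of a serine and 3 or more prolines in the protein (x axis). Grey squares and bars are the median and the 10th to 90th percentile of other expressed genes, and orange points are the 8 PERK genes. The other genes include extensins and leucine-rich repeat extensins that are also listed separately. The median falls from 0.04 without a run to -1.28 with 6 or more, and the 5 PERK genes in the last class lie between -1.21 and -0.43.

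Genes that share either side of the PERK protein gave different values. Among the leucine-rich repeat extensins, wall proteins with a similar proline-rich part and no kinase, 6 of 6 expressed genes had intervals below 1 and the median log2 ratio was -1.80. Values ran from LRX4 at 2355 and 214 counts (-3.35) and LRX5 at 1831 and 311 (-2.43) to LRX6 at -0.57. Of the classical extensins, 16 of 16 had intervals below 1, with a median of -1.37, and AT1G26250 had 223 counts in Col and 60 in the overexpression line.

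Of the 20 genes whose proteins were most like the PERKs in sequence outside the family, 14 reached a mean RPKM of 1, 4 had an interval below 1 and 1 above, and their median was -0.19. The lowest was the kinase gene AT5G56890 at 708 and 354 counts (-0.90). Its predicted protein holds 13.9% proline, against a median of 4.69% in expressed genes. The next were GPK1 at 195 and 123 counts (-0.57), with 4.28% proline, and AT4G02630 at 163 and 110 (-0.48), with 3.86%. After adjustment for length and GC content the median of these relatives was 0.0026, and that of the PERK genes -0.61. With C share in place of GC content the medians were 0.025 and -0.51. With the highest C share in 100 bases they were 0.016 and -0.35.

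Other receptor kinases of the cell wall had a median of -0.27, or -0.03 adjusted for length and GC content, and 4 of 8 had intervals below 1. FER had 3120 counts in Col and 2224 in the overexpression line, a ratio of 0.737 (0.698 to 0.779), and HERK1 601 and 459, a ratio of 0.790 (0.698 to 0.894). FEI2 had 36 and 16, a ratio of 0.460 (0.238 to 0.850), and the wall-associated kinase gene WAK2 0.783 (0.543 to 1.12). The PERK, extensin and kinase lists were chosen with earlier results of these data known, and their medians are set side by side without a test.

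**Figure D5:**
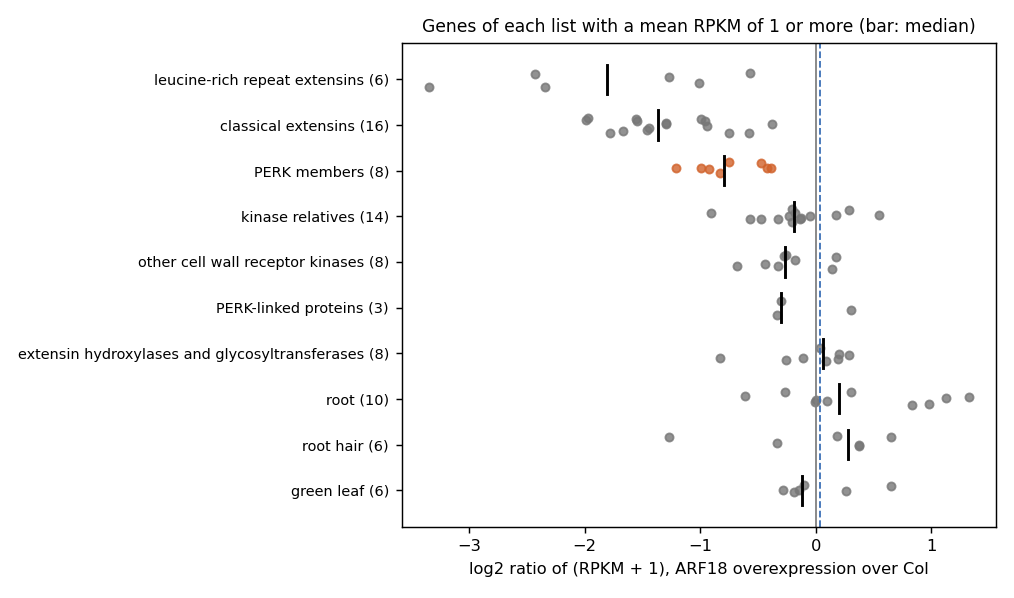
Log2 ratio of (RPKM + 1), overexpression over Col (x axis), of the expressed genes in each list (y axis, number of genes in brackets); black bars are list medians and the dashed line is the median of all expressed nuclear genes (0.03). The PERK genes (orange, median -0.79) lie between both extensin lists (-1.80 and -1.37) and the kinase lists (-0.19 and -0.27).

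Genes listed for proteins tied to the PERKs, and for enzymes that modify extensin-like parts, had ratios on both sides of 1. KIPK2, a kinase bound by PERK8, PERK9 and PERK10, had 409 and 317 counts, a ratio of 0.802 (0.690 to 0.931), and its log2 ratio of -0.30 was -0.03 adjusted for length and GC content. NIK1, a receptor kinase that, like PERK1, is bound by a geminivirus shuttle protein, had a ratio of 0.778 (0.634 to 0.954), and RNS2, a ribonuclease that binds PERK13, 1.25 (0.992 to 1.57). KIPK1 had 8 and 6 counts and did not reach a mean RPKM of 1. Of 8 expressed prolyl hydroxylases and glycosyltransferases of extensins, 2 had intervals below 1 and 2 above, with a median log2 ratio of 0.07. The hydroxylase gene P4H5 had 399 and 446 counts (ratio 1.16, 1.01 to 1.33) and the serine galactosyltransferase gene SERGT1 602 and 484 (0.832, 0.736 to 0.939). The arabinosyltransferase genes HPAT2 and HPAT3 had ratios of 1.24 (0.930 to 1.66) and 0.400 (0.187 to 0.802).

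Markers of the tissues in which PERK genes act were measured beside them. Of 10 root markers, 4 had intervals above 1 and 2 below, with log2 ratios from -0.62 to 1.33. The 2 below 1, named after their values were seen, were SCR at 609 and 378 counts (ratio 0.642, 0.563 to 0.731) and PYK10 at 130637 and 105042 (0.832, 0.825 to 0.839). TIP2;3, a root aquaporin, had 49 and 130 counts, and CASP1, a Casparian strip gene, 534 and 927. WOX5 had 16 and 40 counts and WER (MYB66) 5 and 15, and WER reached a mean RPKM of 1 only through the overexpression library (0.868 and 2.69). Summed RPKM of the root list was 10470 in Col and 8825 in the overexpression line, nearly all of it from PYK10. Of 6 expressed root hair markers, 3 had intervals above 1 and 2 below. EXPA7 had 104 and 162 counts (ratio 1.61, 1.25 to 2.08) and EXPA18 126 and 160 (1.31, 1.03 to 1.67). PRP3, named after its value was seen, had 549 and 604 (1.14, 1.01 to 1.28). The interval of RHD6, at 44 and 58 (1.36, 0.906 to 2.07), included 1. The 2 with intervals below 1 were LRX1 and SHV2. LRX1, which is also an extensin of the list above, had 380 and 143 (0.389, 0.319 to 0.473). SHV2, named after its value was seen, had 203 and 153 (0.780, 0.628 to 0.966). PERK13, at 65 and 42, was lower in the overexpression library as well. Summed RPKM of the root hair list was 138 in Col and 147 in the overexpression line. Of 6 green leaf markers, 4 had intervals below 1 and 2 above, and their summed RPKM was 4085 in Col and 3919 in the overexpression line. The 2 above were RBCS1A at 3818 and 4436 counts and RBCS2B at 753 and 1145. Those below were LHCB1.1 (CAB2) at 2306 and 1831, PSAD-1 at 6249 and 5306, LHCB2.1 at 7575 and 6633 and LHCB3 at 8973 and 8105. The part of tissue composition in the PERK values was not tested.

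Protein-coding genes next to the PERK genes on the chromosome had ratios on both sides of 1. Of the 20 places beside the 10 members, 17 had a row in the table and 11 of these genes reached a mean RPKM of 1. Among these 11 the interval was wholly above 1 for 5 and below 1 for 1, AT4G34450 next to PERK5 (0.826, 0.791 to 0.863). AT4G32700 next to PERK14, which did not reach a mean RPKM of 1, also had an interval below 1. It had 42 and 20 counts (0.493, 0.274 to 0.858). Next to PERK10, AT1G26160 had 75 and 100 counts, and next to PERK9, AT1G68680 had 108 and 156. These neighbours were taken by position and named after their values were seen.

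Auxin response factors bind short DNA elements, so the promoters were searched in the window from 250 bases before to 50 bases after the annotated gene start in TAIR10.1. TGTCTC, on either strand, was found in PERK5 and PERK15, and in 14.2% of 37897 windows of the same length. TGTCGG, on either strand, was found in PERK4, and in 5.06% of windows. The other 7 members, including PERK1, PERK8, PERK9 and PERK10, held neither sequence in this window.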

How the data were processed

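RNA from whole seedlings was measured as 1 library per genotype. The authors deposited read counts per transcript model, RPKM values, a log2 ratio of the RPKM columns, and p-value and FDR columns in 1 table. The submitters' processing notes name TAIR 10 as the build; for aligner, counter, strandedness and test the labels and the table give no name. RPKM recomputed from the deposited counts, lengths and totals matched within 3.2e-06 percent. A zero count, deposited as an RPKM of 0.01, was set to 0.

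Deposited counts and RPKM values were added up over the models of a locus. The difference was log2 of (RPKM + 1), overexpression over Col, taken over nuclear genes whose mean RPKM was at least 1. Count ratios scaled to the totals carry 95% exact conditional binomial intervals, and levels carry 95% exact Poisson intervals. Intervals cover counting error only. They may be too narrow even for that, since reads without molecular identifiers need not be independent molecules. Nothing was tested between genotypes, because each had 1 library.

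Members and lists were chosen with earlier results of these data known. Named genes are the 10 members, ARF18 and from each list up to 4 expressed genes whose log2 ratio was farthest from 0. Further genes, such as LRX6, KIPK1, PYK10 and the neighbouring genes, were named after their values were seen. Kinase relatives are the 20 proteins with the highest blastp score outside the family, and proline-rich proteins those with 15% proline or more. Sequences, symbols, proteins (longest coding sequence of a gene) and base composition came from the TAIR10.1 RefSeq reference, using the transcript nearest in length to the deposited one, so they rest on a later annotation than the deposited lengths. The ratio, its interval and the adjustment for length were tried on simulated Poisson counts. The adjustments for base composition were not. Alternatives were pseudocounts, filters, scalings, the top transcript model of a locus, and adjustment for length and composition. Software was Python, numpy, pandas, scipy, matplotlib, biopython and blastp (versions 3.11.15, 2.4.6, 2.3.3, 1.17.1, 3.10.9, 1.88 and 2.17.0).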

Additional observations from a re-analysis of the deposited data

How the results depend on the processing

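No paired analysis was possible because there was a lone library of either genotype. The median log2 ratio of the PERK genes (-0.79) was negative in each setting tried: -0.42 with a pseudocount of 5 RPKM, -0.61 adjusted for length and GC content, -0.51 for length and C share, -0.35 for length and the highest C share in 100 bases (added after seeing the data), and -0.61 over the 10 genes without a filter. Of 72 values of single PERK genes in the alternative settings, 54 stayed within the counting interval of the ratio, 17 moved outside it with the same sign, and 1 had the opposite sign, PERK13 at 0.10 in the adjustment for the highest C share. A pseudocount changes no sign by construction, and the setting with the top model alone repeats each value, since each member has 1 model. The number of members with an interval below 1 was 6, 7 under TMM scaling, where PERK13 joined, and 5 with intervals shifted by either C-based adjustment. The adjustments take PERK14 at its short deposited length of 1618 bases.

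Genes at least 2-fold lower numbered 100, and 249 with a pseudocount of 0.1 RPKM, 33 with 5 RPKM, 65 at a mean RPKM of at least 5 and 711 at 1.5-fold. Genes at least 2-fold higher numbered 188, and 391, 23, 61 and 941 in those settings, 80 adjusted for length and GC content, 82 for length and C share and 80 for length and the highest C share in 100 bases. Counts of under 100 in both libraries limit the precision of PERK4, PERK9, PERK13 and PERK15, and PERK10 had 89 in the overexpression library. PERK5 and PERK12 had the fewest counts.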

Other observations

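Before adjustment, proline-rich proteins as a class had a median nearer to 0 than the extensins and the PERK genes. The class leaves out only the PERK family and so overlaps the extensin lists above. Among its members at least 2-fold lower were the extensin genes AT1G23720 and AT2G43150 and the leucine-rich repeat extensins LRX3 and LRX5. These also fall among the genes with 20% proline or more below. Of 130 expressed genes with 15% proline or more outside the family, 52 had intervals below 1 and 18 above, 21 were at least 2-fold lower and 1 was 2-fold higher, with a median log2 ratio of -0.12. Their median transcript length was 1050.5 bases, against 2554.5 in the PERK genes. Adjusted for length and GC content their median was -0.30, and that of the PERK genes -0.61. With the highest C share in 100 bases in place of GC content the medians were -0.16 and -0.35. By proline share, the 55 other genes with 15% to 20% had a median of 0.01, and the 75 with 20% or more -0.32, or -0.19 and -0.51 adjusted for length and GC content. PERK8, PERK9, PERK10 and PERK14, with 16.3% to 19.2% proline, were at -0.48 to -1.21.

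Some pollen extensin-like genes had reads in these seedlings. PEX2 had 51 counts in Col and 15 in the overexpression line (ratio 0.304, 0.159 to 0.550), and PEX3 69 and 30 (0.450, 0.283 to 0.700). PEX4 had 6 and 7 (1.21, 0.347 to 4.35) and did not reach a mean RPKM of 1. The receptor kinase gene ANX1 had 27 and 18 (0.690, 0.358 to 1.30). PEX2 and ANX1 reached a mean RPKM of 1 only through Col (2.84 and 0.864 for PEX2, 1.39 and 0.957 for ANX1). Of the 10 pollen markers, 4 reached a mean RPKM of 1, and the pollen aquaporin gene TIP1;3 had 1 and 0 counts. PERK5, tied to pollen tube growth, had 0 and 1.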
